A study of Mus musculus with 6 samples.

Results

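Wnt ligands are the secreted proteins that switch on Wnt signalling in a receiving cell. The 8 ligand genes followed here, Wnt3, Wnt4, Wnt5a, Wnt6, Wnt7b, Wnt9b, Wnt10a and Wnt11, were taken by symbol from a gene table of polyadenylated RNA that lists 40769 genes, of which 19 are Wnt genes. These 8 members were chosen with earlier results of these data known. The RNA came from mouse jejunum enteroids, which are epithelial cultures that keep the crypt and villus organisation of the small intestine. The study asked how gene expression differs under over-expression of PLAGL2, a transcription factor with zinc fingers. All 3 lines were of strain C57BL/6, grew in serum-free ENR medium and carried a piggyBac transposon, an integrating vector, for constitutive expression of their insert. PLAGL2 clone 3 has a high PLAGL2 level by its label, PLAGL2 clone 1 has a low one, and the control line carries GFP in place of PLAGL2. Each line was sampled at passage 7 and at passage 5, which gives 6 libraries, 2 per line. A line is a single transfected culture and there is 1 GFP line. The p-values between single lines below thus measure the spread between passages of the same lines and not between independent transfections. Where both clones are set against GFP, the spread also includes that between the clones. The p-values for passage measure how the passage difference varies over the 3 lines. The promoter that drives the inserts is not given in the labels.

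A Wnt protein is lipid-modified in the endoplasmic reticulum by the acyltransferase Porcn and carried to the cell surface by Wls. It then binds Frizzled receptors, with Lrp5 or Lrp6 in the beta-catenin branch and with Ror or Ryk receptors in other branches. In the mouse crypt, Paneth cells are the known epithelial source of Wnt3, while the mesenchyme under the crypt is known for Wnt2b, Wnt4 and Wnt5a. ENR medium, named for EGF, Noggin and R-spondin, contains no added Wnt, so small intestinal enteroids live on the ligands they make.

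The libraries held 13790909 to 17341205 reads on genes, recovered from the steps between low values. The epithelial markers (Epcam, Cdh1, keratins and the like) were above 0 in 9 of 9 genes in every library, with a summed level of 2873 to 3121 RPKM (reads on a gene scaled to its length and to the size of the library). Of 14 mesenchymal markers, Col3a1, Dcn and Lum were at 0 in all 6 libraries, while Vim (5.05 to 9.86 RPKM), Pdgfrb (0.664 to 1.25 RPKM) and Acta2 (0.410 to 1.05 RPKM) were above 0 in all of them. So was Gli1, at low levels of 0.0543 and 0.0491 RPKM in clone 3 at passages 7 and 5, 0.0354 and 0.0315 in clone 1, and 0.0396 and 0.0329 in GFP. The summed level of these 14 genes, most of it Vim, was 11.7 and 9.04 RPKM in clone 3 at passages 7 and 5, 8.97 and 6.62 in clone 1, and 10.2 and 6.69 in GFP. Plagl2 itself had 37.2 RPKM in both clone 3 libraries, 26.5 and 30.9 in clone 1 at passages 7 and 5, and 23.1 and 22.8 in GFP, in the order of the labels. Its difference from GFP did not pass limma-trend in either clone (adjusted p = 0.0793 in clone 3 and 0.995 in clone 1). In clone 3 it did pass with passage as a block (adjusted p = 0.0358) and in a limma-voom fit of the recovered reads (0.0448). Whether reads of the PLAGL2 insert were counted on mouse Plagl2 is not known, so these values need not measure the insert.

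Wnt3, Wnt4 and Wnt9b are shown by the bases around their annotated starts, since Wnt4 and Wnt9b were ordered by line in the same way and Wnt3, the neighbour of Wnt9b, was not. The sequences run 5′ to 3′ on the gene's own strand, from RefSeq on GRCm38.p6, with 250 bases before the start and 50 after it. Capitals mark every match, on either strand, to GGGGC followed by GGG after a gap of 6, 7 or 8 bases of any kind (CCC before GCCCC on the other strand), a GC-rich pattern like those that PLAG family zinc fingers bind. Matches with these 3 gaps can overlap each other, and a match is a description of letters and not a site of binding. Wnt4 is at chr4:137277385-137277684 on the plus strand, Wnt9b at chr11:103749772-103750071 on the minus strand and Wnt3 at chr11:103773925-103774224 on the plus strand.
Wnt4: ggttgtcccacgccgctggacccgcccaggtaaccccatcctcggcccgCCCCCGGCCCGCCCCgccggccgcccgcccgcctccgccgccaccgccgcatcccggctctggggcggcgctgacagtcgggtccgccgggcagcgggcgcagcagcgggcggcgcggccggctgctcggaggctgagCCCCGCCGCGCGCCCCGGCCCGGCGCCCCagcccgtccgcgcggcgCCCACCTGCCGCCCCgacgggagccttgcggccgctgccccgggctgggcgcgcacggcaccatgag
Wnt9b: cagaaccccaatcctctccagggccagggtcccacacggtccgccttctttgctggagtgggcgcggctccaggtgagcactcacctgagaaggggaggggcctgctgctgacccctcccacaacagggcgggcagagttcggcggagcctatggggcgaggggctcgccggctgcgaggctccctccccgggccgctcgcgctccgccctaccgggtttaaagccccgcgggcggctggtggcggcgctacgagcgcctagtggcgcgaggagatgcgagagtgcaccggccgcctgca
Wnt3: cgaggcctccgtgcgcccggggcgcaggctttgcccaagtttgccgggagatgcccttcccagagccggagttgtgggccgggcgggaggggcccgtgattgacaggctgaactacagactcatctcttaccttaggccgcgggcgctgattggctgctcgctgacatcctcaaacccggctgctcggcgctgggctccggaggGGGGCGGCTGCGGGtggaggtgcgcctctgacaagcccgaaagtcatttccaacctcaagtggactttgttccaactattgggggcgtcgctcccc
The Wnt4 window held 6 matches, which overlap in part, the Wnt3 window held 1 and the Wnt9b window held 0. The Wnt4 gene as annotated in GENCODE begins at 137277489, inside this window and before the RefSeq start. The Wnt4 matches at -63, -62, -50 and -17 bases from the RefSeq start thus lie within that gene. For the 3 windows, GC content is given next. The GC content of the windows was 84.3%, 65.7% and 71.7% for Wnt4, Wnt3 and Wnt9b. A match was present in 15.9% of the 32851 promoters of the same length, and in 55.0% of the 3148 with a GC content of at least 70%. These shares are for 1 or more matches, and none was taken for the number of matches. The median GC content of the GC-rich set was 73.7%, under the 84.3% of the Wnt4 window. The part of GC content in the number of matches was not tested. Of the other members, Wnt6 had 3 matches, and Wnt11, with 2 listed starts, had 1 match in one window and 0 in the other.

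Wnt3 was the most abundant of the 8 ligands in every line, and of the 4 tested it had the smallest difference between clone 3 and GFP. Wnt4, Wnt5a and Wnt9b were high in clone 3, intermediate in clone 1 and low in GFP, in both passages. Wnt6, Wnt7b, Wnt10a and Wnt11 lay under 0.5 RPKM in all 6 libraries. Genes were tested where 2 or more libraries reached 0.5 RPKM, a condition that 16314 genes met, among them Wnt3, Wnt4, Wnt5a and Wnt9b. Wnt5a met it only through clone 3 and Wnt4 only through the PLAGL2 libraries, and Wnt9b through 3 of those, so the number of tested members is itself a product of the lines. RPKM is per length, so levels of different genes can be set side by side.

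**Figure D1:**
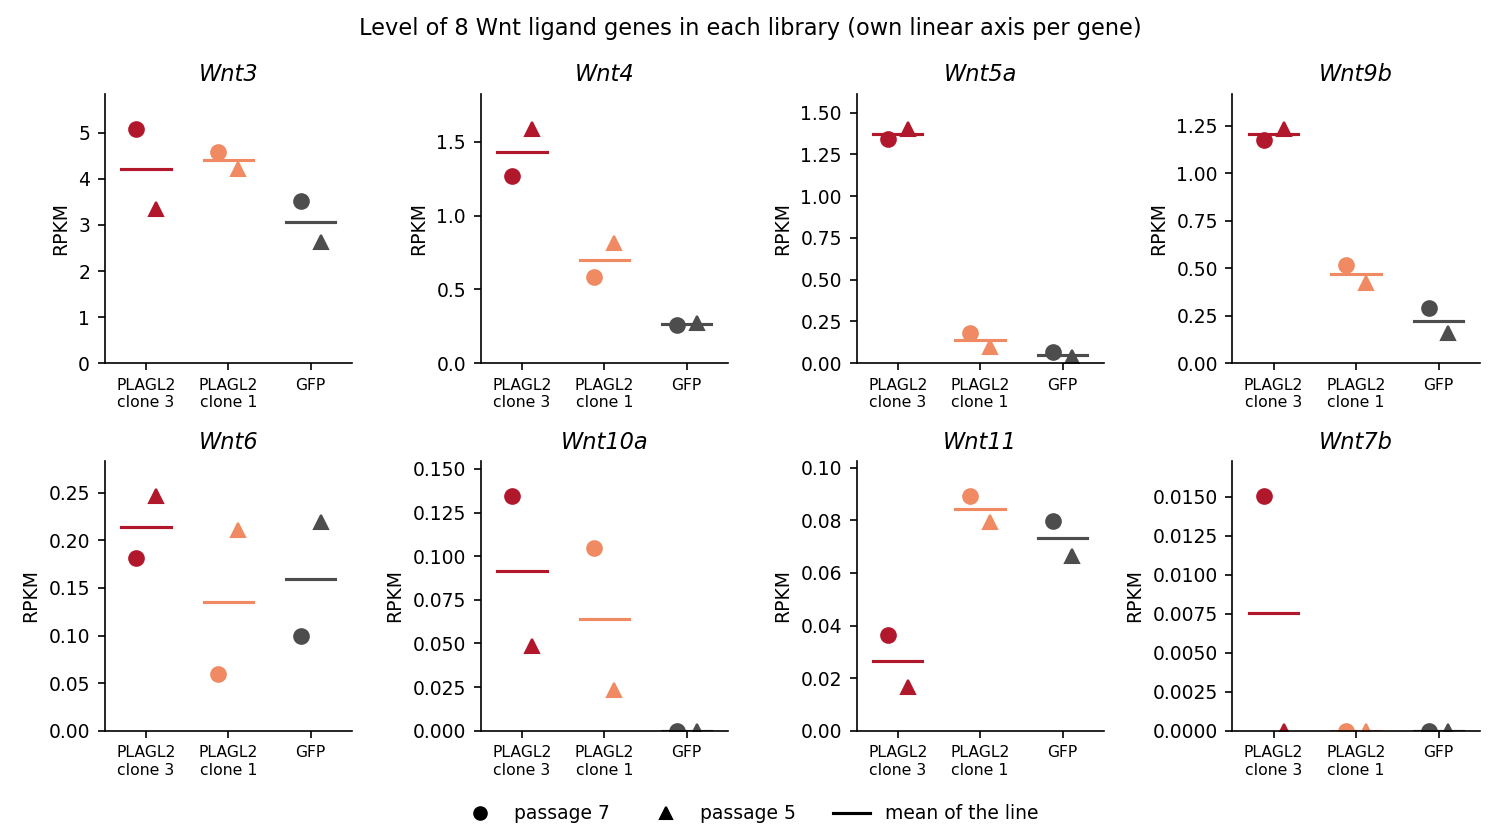
Level of each of the 8 Wnt ligand genes in RPKM (linear vertical axis, its own scale for each gene) by line, with circles for passage 7, triangles for passage 5 and a bar at the mean of the 2 libraries. Wnt4, Wnt5a and Wnt9b step down from clone 3 through clone 1 to GFP, while the lines of Wnt3 lie between 2.62 and 5.09 RPKM.

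Wnt5a (ENSMUSG00000021994, chromosome 14, 28504750 to 28527448, plus strand, GRCm38) encodes a ligand known for beta-catenin-independent and planar polarity signalling. It had 1.34 and 1.40 RPKM in clone 3 at passages 7 and 5, 0.182 and 0.0960 in clone 1, and 0.0650 and 0.0385 in GFP. Behind these stood 158 and 183 reads in clone 3, 22 and 13 in clone 1, and 7 and 5 in GFP. Both clone 3 libraries lay far above the rest, and both clone 1 libraries lay above both GFP libraries. The ratio of mean RPKM was 26.5 for clone 3 over GFP, 9.86 for clone 3 over clone 1 and 2.69 for clone 1 over GFP. In bulk RNA like this, a different number of expressing cells and a different amount of RNA per cell cannot be told apart.

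Log2 differences were taken after adding 0.5 to each RPKM, which makes differences of low genes look smaller. On that scale Wnt5a differed between clone 3 and GFP by 1.76 (SE 0.23). Its limma-trend p adjusted over all genes was 0.0651, over the threshold of 0.05 that 57 genes, 0.349% of the 16314 tested, passed. Clone 3 against clone 1 gave 1.55 (adjusted p = 0.195, with 0.0245% of genes called), which is also the test of whether the clones differ in their change from GFP. The recovered reads, fitted with limma-voom and without a pseudocount on RPKM, gave 4.69 (SE 0.44, adjusted p = 0.0125) for clone 3 against GFP, where 0.858% of genes were called. The same fit gave 3.35 (SE 0.33, adjusted p = 0.0344) for clone 3 against clone 1, where 0.141% were called. Wnt5a thus passed the read-based test against either line and missed the threshold of limma-trend as first fitted. It had entered both tests through the clone 3 libraries alone. For clone 3 against GFP, limma-trend gave an adjusted p of 0.0355 without the filter on low genes and of 0.0435 with passage as a block, where 342 genes were called. For clone 3 against clone 1, these 2 settings gave 0.0712 and 0.132.

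Wnt4 (ENSMUSG00000036856, chromosome 4, 137277489 to 137299726, plus strand) encodes a ligand known for its roles in kidney and female gonad development. Its level was 1.27 and 1.59 RPKM in clone 3 at passages 7 and 5, 0.587 and 0.812 in clone 1, and 0.260 and 0.273 in GFP. The reads behind them numbered 80 and 111 in clone 3, 38 and 59 in clone 1, and 15 and 19 in GFP. No 2 lines overlapped. The ratio of mean RPKM was 5.36 for clone 3 over GFP, 2.04 for clone 3 over clone 1 and 2.63 for clone 1 over GFP.

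Wnt9b (ENSMUSG00000018486, chromosome 11, 103727364 to 103749821, minus strand) encodes a ligand that, in the mouse kidney, induces tubule formation. It had 1.17 and 1.24 RPKM in clone 3 at passages 7 and 5, 0.516 and 0.422 in clone 1, and 0.289 and 0.160 in GFP. These came from 80 and 93 reads in clone 3, 36 and 33 in clone 1, and 18 and 12 in GFP. The lines again did not overlap, in the same order as for Wnt4. The ratio of mean RPKM was 5.36 for clone 3 over GFP, 2.57 for clone 3 over clone 1 and 2.09 for clone 1 over GFP.

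Against GFP, clone 3 differed by 1.33 (SE 0.23, adjusted p = 0.125) for Wnt4 and by 1.24 (SE 0.22, adjusted p = 0.142) for Wnt9b in limma-trend, neither past the threshold. The read-based voom fit gave 2.38 (SE 0.31, adjusted p = 0.0315) for Wnt4 and 2.47 (SE 0.33, adjusted p = 0.0331) for Wnt9b, so both passed that test, having entered it through PLAGL2 libraries alone. Between clone 3 and clone 1 neither passed, with voom differences of 1.03 (adjusted p = 0.425) for Wnt4 and 1.36 (adjusted p = 0.248) for Wnt9b. An order in which both libraries of clone 3 lay above both of clone 1 was seen in 14.5% of all tested genes. All 4 PLAGL2 libraries lay above both GFP libraries in 7.96% of tested genes, as they did for Wnt4, Wnt5a and Wnt9b. The members were chosen with earlier results known, so these shares are a description and not a test. Leaving out any 1 library left limma-trend adjusted p at 0.232 to 0.485 for Wnt4 and 0.284 to 0.584 for Wnt9b in clone 3 against GFP. For Wnt5a the range was 0.163 to 0.357 over the 4 such fits that could test it.

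Wnt3 (ENSMUSG00000000125, chromosome 11, 103774150 to 103817957, plus strand) encodes the ligand that small intestinal enteroids are known to require from their Paneth cells. It had 5.09 and 3.34 RPKM in clone 3 at passages 7 and 5, 4.59 and 4.21 in clone 1, and 3.52 and 2.62 in GFP. The reads numbered 236 and 171 in clone 3, 218 and 224 in clone 1, and 149 and 134 in GFP. Clone 1 lay above GFP without overlap, as did 13.6% of tested genes, whereas clone 3 overlapped both other lines when passages were mixed. At the same passage clone 3 lay above GFP both times, by a log2 ratio of 0.534 at passage 7 and 0.346 at passage 5. The ratio of mean RPKM was 1.37 for clone 3 over GFP and 1.43 for clone 1 over GFP. The log2 difference from GFP was 0.39 (95% interval -0.20 to 0.97, limma-trend adjusted p = 0.777) in clone 3 and 0.47 (-0.12 to 1.05, adjusted p = 1.0) in clone 1. For clone 3 against clone 1 it was -0.08 (-0.66 to 0.50, adjusted p = 1.0), and it turned to 0.19 when the passage 5 library of clone 3 was left out. With passage as a block, the interval for Wnt3 in clone 3 against GFP was 0.03 to 0.75 (limma-trend adjusted p = 0.235). In clone 1 against GFP it was 0.11 to 0.83 (adjusted p = 0.423), so neither difference passed.

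Clone 1 against GFP gave limma-trend log2 differences of 0.64 for Wnt4, 0.42 for Wnt9b and 0.21 for Wnt5a, with an adjusted p of 1.0 for each, and 0.0306% of genes were called. The interval for Wnt4 was 0.08 to 1.20, that for Wnt9b was -0.14 to 0.98 and that for Wnt5a was -0.36 to 0.78. Voom, which called 0.0613% of genes there, called none of these 3 either (adjusted p = 0.623 for Wnt4 and 1.0 for Wnt9b and Wnt5a). In the fit of both clones against GFP, where the spread includes that between the clones, limma-trend called 1 gene (0.00613%) and voom 8 genes (0.049%). There the limma-trend difference was 0.99 (SE 0.56, adjusted p = 0.923) for Wnt5a, 0.98 (SE 0.30, adjusted p = 0.67) for Wnt4, 0.83 (SE 0.33, adjusted p = 0.818) for Wnt9b and 0.43 (SE 0.19, adjusted p = 0.85) for Wnt3. These comparisons share the GFP libraries and are not independent of each other.

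**Figure D2:**
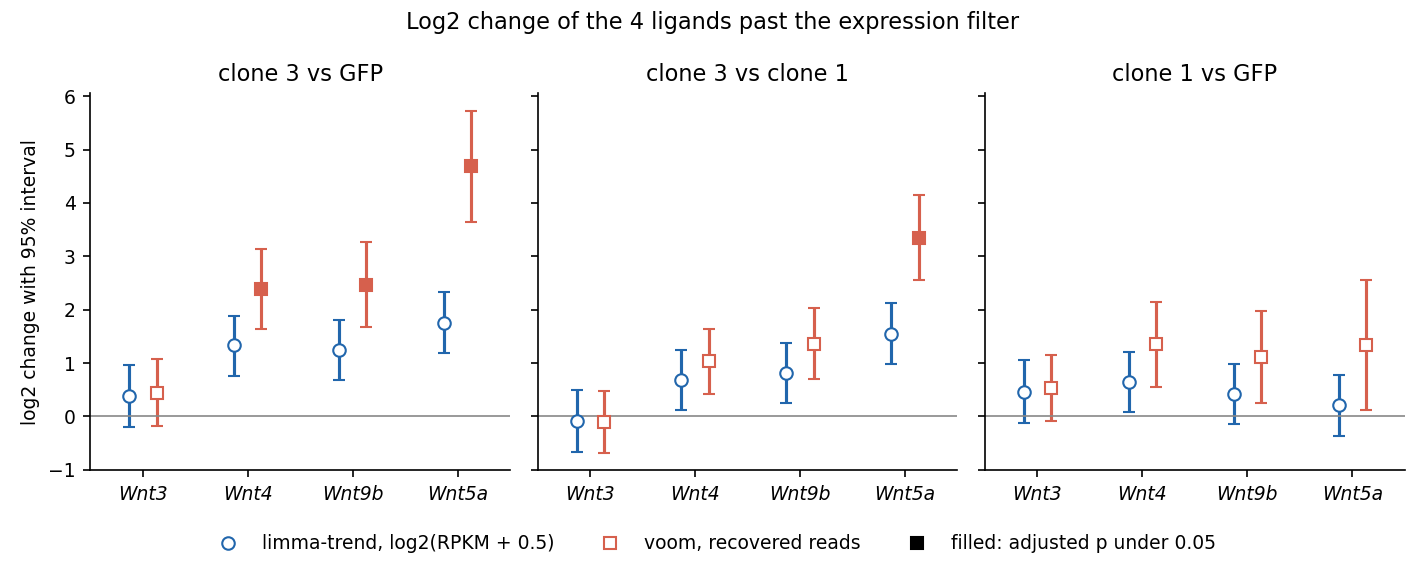
Log2 difference (vertical axis) of the 4 ligands past the expression filter in 3 comparisons of lines, with 95% intervals, from limma-trend on log2(RPKM + 0.5) (circles) and from voom on recovered reads (squares). Filled symbols have an adjusted p under 0.05, which in clone 3 against GFP are the voom values of Wnt4 (2.38), Wnt9b (2.47) and Wnt5a (4.69), and in clone 3 against clone 1 that of Wnt5a (3.35).

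The 4 ligands below the filter rested on few reads and were not tested. Wnt6 (chromosome 1, 74771892 to 74785322), an epithelial ligand in development, had 6 and 9 reads in clone 3 at passages 7 and 5, 2 and 8 in clone 1, and 3 and 8 in GFP, and its lines overlapped. Wnt10a (chromosome 1, 74791516 to 74804179), known for teeth and skin appendages, had 5 and 2 reads in clone 3, 4 and 1 in clone 1, and 0 in both GFP libraries. A count of 0 allows up to 3 reads, which for Wnt10a is 0.0702 to 0.0882 RPKM depending on the library, and this floor covers counting error only. The passage 7 libraries of the clones lay above that floor, at 0.134 RPKM in clone 3 and 0.105 in clone 1. The passage 5 libraries of both clones lay under it. A difference of Wnt10a from GFP rests on these few reads and was not tested.

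Wnt11 (chromosome 7, 98835112 to 98855195), known for cell movements in gastrulation and for kidney branching, had 2 and 1 reads in clone 3 at passages 7 and 5, 5 and 5 in clone 1, and 4 and 4 in GFP. It was the member with its lowest values in clone 3, on 3 reads in that line against 8 in GFP. Wnt7b (chromosome 15, 85535437 to 85582473, minus strand), known for lung and kidney development, had 1 read in the passage 7 library of clone 3 and 0 in the other 5 libraries. The floor of 3 reads is 0.0385 to 0.0484 RPKM for Wnt7b.

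In clone 3 the order of mean levels was Wnt3 at 4.21 RPKM, Wnt4 at 1.43, Wnt5a at 1.37 and Wnt9b at 1.20, and the ranges of Wnt4 and Wnt5a overlapped. Wnt6 followed at 0.214 RPKM. In clone 1 Wnt3 stood at 4.40 RPKM, then Wnt4 at 0.700, Wnt9b at 0.469, Wnt5a at 0.139 and Wnt6 at 0.135, and the last pair overlapped. In GFP Wnt3 stood at 3.07 RPKM, then Wnt4 at 0.266 and Wnt9b at 0.225, which overlapped, and Wnt6 at 0.160, which overlapped with Wnt9b. The rank of Wnt5a among the 8 was 3 in clone 3, 4 in clone 1 and 6 in GFP, behind Wnt11.

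The sum of all 19 Wnt genes was 12.4 and 11.6 RPKM in clone 3 at passages 7 and 5, 9.33 and 9.17 in clone 1, and 8.34 and 6.37 in GFP. Wnt4, Wnt5a and Wnt9b together made up 30.6% and 36.4% of that sum in clone 3, 13.8% and 14.5% in clone 1, and 7.36% and 7.40% in GFP. Wnt3 made up 41.2% and 28.7% in clone 3, 49.2% and 45.9% in clone 1, and 42.2% and 41.2% in GFP. The other large part was Wnt2b, which is not among the 8 members. It had 2.41 and 2.96 RPKM in clone 3, 2.63 and 2.67 in clone 1, and 3.72 and 2.53 in GFP, and limma-trend did not call it in clone 3 against GFP (-0.17, adjusted p = 0.935). Its share of the sum was 19.5% and 25.4% in clone 3, 28.2% and 29.1% in clone 1, and 44.6% and 39.7% in GFP. These shares are of RPKM, not of protein, and were not tested.

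**Figure D3:**
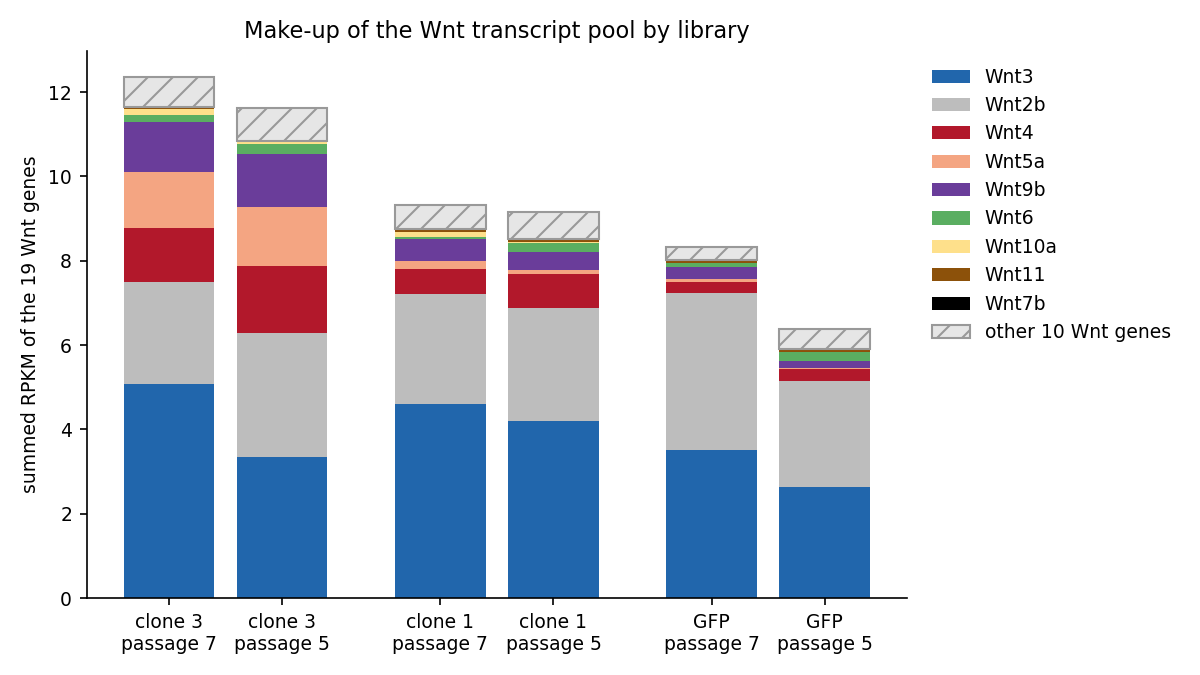
Summed RPKM of the 19 Wnt genes (vertical axis, from 0) in each of the 6 libraries, stacked by gene, with hatching for the other 10 Wnt genes together. Wnt3 and Wnt2b make up most of the 6.37 to 8.34 RPKM in GFP, and the Wnt4, Wnt5a and Wnt9b segments widen to 3.78 and 4.23 RPKM in clone 3.

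Passage 7 was set against passage 5 within lines. In every line passage 5 is replicate A and passage 7 is replicate B, so passage and replicate cannot be told apart. Wnt3 was higher at passage 7 in all 3 lines, as were 39% of all tested genes, by a log2 difference of 0.34 (SE 0.11, adjusted p = 0.116), and so did not pass. Wnt4 was lower at passage 7 in all 3 lines (-0.18, SE 0.15, adjusted p = 0.455). Wnt5a (0.07, adjusted p = 0.803) and Wnt9b (0.12, adjusted p = 0.656) moved in different directions in different lines. In this comparison limma-trend called 12.1% of all genes, 1111 higher and 864 lower at passage 7. That split depended on the scaling, with 771 higher and 888 lower after quantile normalization and 488 and 1103 after median ratio scaling.

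The transcript table, which was normalised separately, lists a single transcript for each of Wnt3, Wnt4 and Wnt9b. For Wnt5a it lists 6, of which 2 are protein-coding. Wnt5a-001 had 0.887 and 0.861 RPKM in clone 3 at passages 7 and 5, 0.251 and 0.202 in clone 1, and 0.147 and 0.152 in GFP. Wnt5a-002, the other coding form, had 0.507 and 0.658 RPKM in clone 3, 0.0742 and 0.0474 in clone 1, and 0.133 and 0.105 in GFP. The non-coding form Wnt5a-004 had 0.799 and 0.868 RPKM in clone 3 and was listed at 0 in the other 4 libraries. Both coding forms were thus highest in clone 3, with clone 1 above GFP for Wnt5a-001 and below it for Wnt5a-002. The way reads were shared between forms is not given, and these values were not tested.

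The exons of Wnt5a overlap the antisense gene Gm2670 by 358 bases, 4.58% of the Wnt5a exon length, and whether counting used the strand is not given. Gm2670 had 0.237 and 0.235 RPKM in clone 3 at passages 7 and 5, 0.0462 and 0.0412 in clone 1, and 0 and 0.0215 in GFP. Reads from the shared stretch cannot be assigned to one gene or the other without the strand. Wnt7b and Wnt11 overlap the exons of AU022754 (324 bases) and of Gm8398 (364 bases), and the same limit holds for their few reads. Gm8398 was at 0 in all 6 libraries. AU022754 was above 0 only in clone 3 at passage 5 (0.0202 RPKM), where Wnt7b was at 0.

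Some of the 8 genes are neighbours. Wnt9b and Wnt3 lie head to head on chromosome 11 with their starts 24.3 kb apart, and Wnt6 and Wnt10a lie on 1 strand of chromosome 1 with starts 19.6 kb apart. Within 250 kb of Wnt9b, 8 of 12 neighbours were tested and 0 were called in clone 3 against GFP, where 0.349% of all genes were. The highest of them, chosen after their values were seen, were Gm11642 (1.56, limma-trend adjusted p = 0.235), whose start is 25.9 kb from that of Wnt9b in the direction of its transcription, and C130046K22Rik (0.98, adjusted p = 0.472), at 52.1 kb. Gm11642 averaged 3.91 RPKM in clone 3, 1.84 in clone 1 and 1.00 in GFP, the same order of lines as Wnt9b. Around Wnt4, 6 of 17 neighbours were tested, with differences between -0.74 and 0.22 and none called. The 1 neighbour of Wnt5a was not tested.

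**Figure D4:**
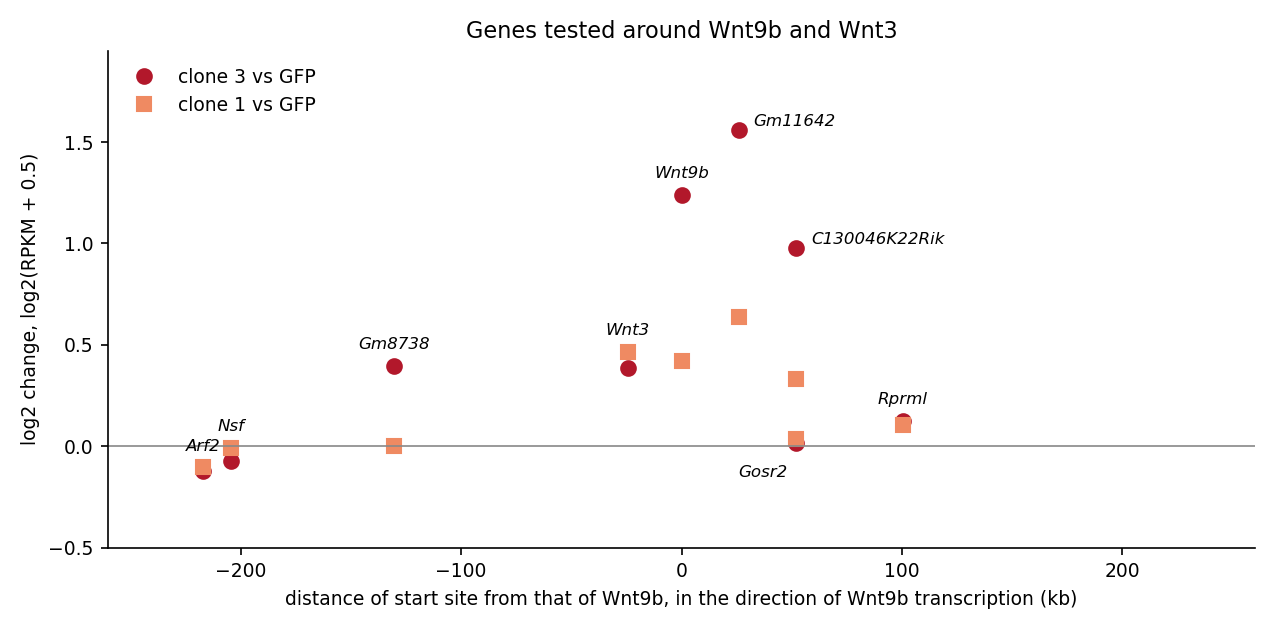
Log2 difference on the log2(RPKM + 0.5) scale (vertical axis) of genes tested within 250 kb of the Wnt9b start, by distance of their starts from it in the direction of Wnt9b transcription (horizontal axis, kb), for clone 3 against GFP (circles) and clone 1 against GFP (squares). Wnt9b (1.24), Gm11642 (1.56) and C130046K22Rik (0.98) lie highest in clone 3, and none of the points passed the test.

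The other genes of the pathway were described from lists chosen by function, with earlier results of these data known. Of the 9 secretion genes, all tested, 0 were called between lines, with a median difference of 0.02 in clone 3 against GFP, against 0.01 for all genes. Limma-trend called 0.349% of all genes in clone 3 against GFP, 0.0306% in clone 1 against GFP and 0.0245% between the clones. At such shares 0 calls in a short list says little about its genes. Porcn had 3.05 and 2.0 RPKM in clone 3 at passages 7 and 5, 2.81 and 3.39 in clone 1, and 2.69 and 1.79 in GFP. Wls had 13.4 and 9.19 RPKM in clone 3, 13.2 and 9.65 in clone 1, and 10.9 and 7.97 in GFP. The lines of both genes overlapped, while Wls was higher at passage 7 in each line. By limma-trend Wls rose at passage 7 (0.46, SE 0.05, adjusted p = 0.0193), and it kept an adjusted p under 0.05 in 2 of the 6 fits that left out 1 library (range 0.0473 to 0.14).

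Extracellular regulators of Wnt, such as Sfrp, Dkk and R-spondin proteins, were mostly too low to test (5 of 26), and 0 were called between lines. Of 21 receptors and co-receptors 18 were tested and 0 were called between lines, with a median of 0.22 in clone 3 against GFP. In sign, 10 of these were higher and 8 lower in clone 3. Ptk7, picked here after its values were seen, had 0.935 and 0.310 RPKM in clone 3 at passages 7 and 5. Its level was 7.96 and 4.61 RPKM in clone 1 and 6.00 and 3.20 in GFP. Of 20 Wnt target genes 18 were tested, and 0 were called between lines. Their median in clone 3 against GFP was 0.27, with 14 of 18 higher in sign, and 0.349% of all genes were called there.

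At passage 7 limma-trend called 8 of the 18 targets higher, which were Axin2, Lgr5, Ascl2, Sox9, Rnf43, Cd44, Ephb3 and Myc, against 6.81% of all genes called higher. The median over the 18 was 0.50, beside 0.09 for all genes, and all 18 were higher in sign. Ascl2, a stem cell transcription factor, had the largest difference of these at 0.91 (SE 0.14, adjusted p = 0.0337), and Axin2, a feedback inhibitor, had 0.52 (SE 0.07, adjusted p = 0.0269). Among receptors, 6 of 18 rose at passage 7, namely Fzd7, Lrp5, Ryk, Ptk7, Lgr5 and Rnf43. Of 9 epithelial markers, Krt20 (-0.79, limma-trend adjusted p = 0.011) and Vil1 (-0.39, 0.0356) were called lower at passage 7 and Krt18 (0.39, 0.0223) higher. Of 16 Paneth cell markers tested, Guca2b (-1.11, 0.0133) was called lower, and Clps (0.342, 0.0363) and Mmp7 (0.325, 0.0387) higher. Of 3 mesenchymal markers tested, Vim (0.492, 0.033) was called higher, where 12.1% of all genes were called. The part of cell content in these passage differences was not tested. Among the targets and receptors, median ratio scaling ended the calls of Fzd7 (adjusted p = 0.0888), Ryk (0.0977), Lrp5 (0.0708) and Sox9 (0.058). Quantile normalization ended those of Fzd7 (0.0669) and Ryk (0.0592). Without the filter, Axin2 (0.0582), Lgr5 (0.0562), Ascl2 (0.0726), Sox9 (0.0683), Ephb3 (0.0541), Fzd7 (0.0845), Lrp5 (0.0562), Ryk (0.0726) and Ptk7 (0.0501) missed the threshold. Without the line term Ascl2 (0.211), Lgr5 (0.146), Rnf43 (0.145), Sox9 (0.0541), Ryk (0.101), Lrp5 (0.0503) and Ptk7 (0.618) did. Leaving out any GFP or clone 1 library left 0 genes called by passage over the whole table (limma-trend, with 3509 to 3654 genes at an unadjusted p under 0.05), so these calls rest on all of those libraries.

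Markers of Paneth cells, the known Wnt3 source, were summed in the same libraries. Of 20 markers, 19 were in the table and 16 were above 0 in every library. Their summed level was 2255 and 1850 RPKM in clone 3 at passages 7 and 5, 3406 and 3192 in clone 1, and 3527 and 3408 in GFP, lowest in clone 3. In clone 3 against GFP, 13 of the 16 tested markers were lower in sign and 0 were called, with a median of -0.46, where 0.349% of all genes were called. In clone 1 against GFP, 11 of the 16 were higher in sign and 0 were called, with a median of 0.06, where 0.0306% of all genes were called. Lyz1, the Paneth cell lysozyme, had 284 and 198 RPKM in clone 3, 636 and 550 in clone 1, and 740 and 704 in GFP. Wnt3, Wnt4, Wnt5a and Wnt9b were not lower in clone 3 than in GFP on average, and the part of Paneth cell content in any of these levels was not tested. Mesenchymal markers were highest in clone 3 at passage 7 and in GFP at passage 7, and Col1a1 did not exceed 0.0404 RPKM in any library. Of 10 markers of other non-epithelial cells, Kdr and Cdh5 were at 0 in all libraries. The sum of these 10 was 2.93 and 2.27 RPKM in clone 3 at passages 7 and 5, 1.91 and 1.74 in clone 1, and 1.45 and 1.57 in GFP, in the same order of lines as Wnt4, Wnt5a and Wnt9b. S100b, a glial marker, had 0.760 and 1.09 RPKM in clone 3, 0.437 and 0.506 in clone 1, and 0.0489 and 0.406 in GFP. Of the 10, 2 were tested and both were higher in sign in clone 3 than in GFP, with a median of 0.63 and 0 called. The part of mesenchymal and other non-epithelial cells in the Wnt4, Wnt5a and Wnt9b levels was not tested.

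The genes whose pattern over the 6 libraries was most like that of Wnt3, by Pearson's r of log2(RPKM + 0.5) among the 16314 tested, were Gm15470 (r = 0.994), Slc19a1, a folate transporter (r = 0.992), and Enpp5 (r = 0.991). Those most like Wnt4 were Cdk16 (r = 0.998), Tns2 (r = 0.995) and Zfyve9 (r = 0.995). Tns2 had 8.19 and 9.62 RPKM in clone 3 at passages 7 and 5, 5.15 and 6.39 in clone 1, and 3.12 and 3.20 in GFP, the same order of libraries as Wnt4. Cdk16 spanned only 41.8 to 44.9 RPKM over all libraries, so a high r here says nothing about the size of a difference. The 6 libraries are 3 lines at 2 passages and not independent, and these values describe likeness only.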

How the data were processed

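Polyadenylated RNA of 6 libraries was analysed from 2 tables of RPKM values, per gene and per transcript, that the authors deposited. The build was mm10 and the named tools edgeR, featureCounts, Subread and STAR, all per the submitters' processing notes. Their roles, versions and filters are not given. The gene table's 614 repeated entries were dropped. Values were fitted as log2(RPKM + 0.5) with limma 3.58.1 (limma-trend, R 4.3.3, two-sided), over 16314 genes, with Benjamini-Hochberg adjustment over all genes and a threshold of 0.05. Reads were recovered from steps of the RPKM values with GENCODE M21 gene lengths. Of 25468 genes with a nonzero value, 67.76% were whole within 0.02 of a read with the annotated length and 32.23% with a fitted length, Wnt5a, Wnt7b and Wnt11 among the latter set. The totals were 13790909 to 17341205 reads per library, and these reads were the input of voom. The fits were tested on simulated data. Alternatives were other pseudocounts (0.1 and 1), no filter, other scalings, a replicate block, no line term for passage and leaving out each library. Named genes were the members, list genes past the threshold, tested Wnt genes, Plagl2, Porcn, Wls and the genes most like Wnt3 and Wnt4. The members and lists were chosen with earlier results of these data known. Protein sequences and the promoters of Wnt5a, Wnt7b and Wnt10a were not used here.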

Additional observations from a re-analysis of the deposited data

Results flagged for a closer look

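Wnt7b stood out in the passage 7 library of clone 3, where it was above 0 while the other 3 PLAGL2 libraries were at 0, so that the gap to the nearest library was the whole range (gap over range 1.0). The value rests on 1 read. A single read in 1 of 4 libraries always gives this value.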

How the results depend on the processing

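Over 13 settings at most, the 20 results for members had 250 alternatives, of which 242 kept direction and side of the threshold, 6 came past it and 2 reversed. Those past it were, in clone 3 against GFP, Wnt5a without a filter (adjusted p = 0.0355), with a replicate block (0.0435) and by voom, Wnt4 and Wnt9b by voom, and, in clone 3 against clone 1, Wnt5a by voom. The reversals were Wnt5a in clone 1 against GFP after quantile normalization (-0.0203) and Wnt3 in clone 3 against clone 1, which ran from -0.352 to 0.191 when 1 library was left out, the highest without clone 3 at passage 5. Wnt5a could not be tested without a clone 3 library, since it then missed the filter.

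Other named genes that reversed when 1 library was left out are given by their lowest and highest values. Wnt2b ran from -0.416 to 0.0615 in both clones against GFP, from -0.41 to 0.0673 in clone 3 against GFP and from -0.422 to 0.0558 in clone 1 against GFP, with the highest value each time without GFP at passage 7. It ran from -0.112 to 0.135 in clone 3 against clone 1 and from -0.132 to 0.23 by passage, and gave -0.0476 and -0.0298 in these after quantile normalization. Wls ran from -0.0222 to 0.503 in clone 3 against GFP and from -0.284 to 0.242 in clone 3 against clone 1, where it also reversed at 0.196. Porcn ran from -0.11 to 0.396 in clone 3 against GFP, where it also reversed at -0.0963, and Plagl2 by passage gave 0.00792 without either clone 1 library. The cause was not tested.

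Counts of genes called varied more. Both clones against GFP (1 gene) gave 0 with a pseudocount of 0.1 (975 at an unadjusted p under 0.05), 17 without a filter, 2 with the replicate block, 8 by voom and 0 to 3 when 1 library was left out. Clone 3 against GFP (57 genes) gave 342 with the block, 140 by voom and 2 to 11 with 1 library left out. Clone 1 against GFP (5 genes) gave 3 with a pseudocount of 0.1, 22 without a filter, 12 with the block, 10 by voom and 0 in every fit with 1 library left out (limma-trend, 456 to 692 at an unadjusted p under 0.05). Clone 3 against clone 1 (4 genes) gave 23 without a filter, 15 after quantile normalization, 7 after median ratio scaling, 47 with the block, 23 by voom and 0 to 2 with 1 library left out. Passage (1975 genes) gave 629 without a filter, 3164 by voom and 0 to 762 with 1 library left out. A lone library of a line was assumed to vary like the others. Libraries of different lines share only a letter and a passage, and their A minus B differences correlated at r = 0.276 to 0.322 over 16314 genes. At this depth Wnt6, Wnt7b, Wnt10a and Wnt11 cannot be compared between lines.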

Other observations

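Among the other Wnt genes, picked here after their values were seen, Wnt5b, a close relative of Wnt5a, stayed under 0.5 RPKM and was not tested. It had 0.425 and 0.384 RPKM in clone 3 at passages 7 and 5, from 17 reads each, 0.220 and 0.239 in clone 1, from 9 and 11 reads, and 0.0820 and 0.181 in GFP, from 3 and 8 reads. Its lines did not overlap and stood in the same order as those of Wnt5a. Wnt10b had 4 and 2 reads in clone 1 at passages 7 and 5 and 0 in both clone 3 and both GFP libraries, and Wnt3a was at 0 in all 6 libraries.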
